A study of Arabidopsis thaliana with 6 samples.

Results

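Among the transcripts measured in Arabidopsis rosettes, 156 probe sets were both abundant and nearly level across watered and water deficit plants. A probe set is the group of short probes on the array that reads 1 transcript. The members were chosen by their measured values. After quantile normalisation, which gives every array the same distribution of values, a member had an intensity of at least 500 on all 6 arrays and a highest value no more than 1.4 times its lowest. Of 22746 non-control probe sets, 912 (4.01%) reached 500 on all 6 arrays and are called abundant here, and the 156 members were 17.1% of these. A gene was paired with 66 of the members without ambiguity, 9 were paired with several genes, and 81 were paired with no gene in the annotation used and stay unnamed.

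Vegetative rosettes came from plants of the Col-0 accession that had grown in soil for 4 weeks. Watered plants continued to receive water, and water deficit plants had water withheld until their relative water content, the water in the leaf as a share of what it can hold, reached 65%. Labelled cRNA made from total RNA was hybridised to Affymetrix ATH1 arrays, 1 array per replicate, with 3 replicates of watered and 3 of water deficit plants. A rosette holds several cell types, so fewer cells of a type and less RNA per cell cannot be told apart in these values.

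Many plant genes with abundant transcripts serve the daily running of the cell. Ribosomes make protein, the mitochondrial respiratory chain passes electrons to oxygen and so drives ATP synthesis, the vacuolar H+-ATPase (V-ATPase) pumps protons into the vacuole, and the photosystems of the chloroplast capture light. Some of these genes are used as references in transcript measurements because their levels are taken to be steady. Genes of the chloroplast genome are transcribed apart from the nucleus, often several genes to 1 transcript.

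The members spanned a wide range of signals. A probe set reads its own probes as well as its transcript, so signals of different genes are not amounts that can be set against each other. Their mean normalised intensity ran from 546 to 8896, with a median of 1073. Their ratios of highest to lowest value ran from 1.127 to 1.39995, with a median of 1.295, and those of the other 756 abundant probe sets reached 12.9, with a median of 1.95. The group means of 130 members lay within 1.2-fold of each other. Members were 25.9% of the abundant probe sets with a mean under 1000 (72 of 278), 11.7% from 1000 to 2000 (44 of 377), 12.97% from 2000 to 4000 (24 of 185) and 22.2% above that (16 of 72). Near the minimum of 500 the rule itself leaves little room for a high ratio, because the lowest value cannot be below the minimum.

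**Figure D1:**
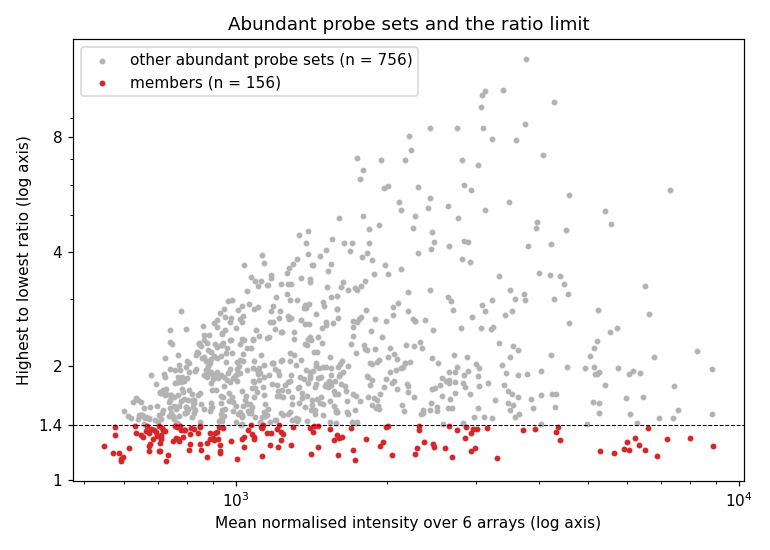
Highest to lowest ratio over the 6 arrays against mean normalised intensity, both on log axes, for the 912 abundant probe sets; the dashed line is the ratio limit of 1.4. The 156 members (red) lie at or under the line at all levels from 546 to 8896, and the 756 others (grey) reach a ratio of 12.9.

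The log2 fold changes of the members (water deficit over watered) ran from -0.42 to 0.39, with a median of 0.01 and a median size of 0.13. The median size was 0.60 in the other abundant probe sets and 0.59 in all 13703 tested probe sets. Of the members, 83 were above 0 and 73 below it. In the limma fit over all tested probe sets, 0 of the 156 members passed an adjusted p of 0.05, and 4 had an unadjusted p under 0.05. Over all tested probe sets 44.9% passed (21.8% higher and 23.0% lower), and over the abundant ones, members included, 43.1% passed (18.3% higher and 24.8% lower). The rule read the same 6 arrays, so these counts describe the choice of members and support nothing further. With each array scaled by its median instead, 11 of the members were called lower, and with no filter on low values 9 were called higher and 12 lower.

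A narrow range did not mean that the groups overlapped. The 3 arrays of one group lay entirely above the 3 of the other in 42 members (26.9%), against 62.6% of the abundant and 56.4% of all tested probe sets. Water deficit arrays were the higher ones in 20 of the 42 and watered arrays in 22. AT5G03880, which encodes a protein of the thioredoxin family, gave 974, 957 and 951 on watered arrays 1, 2 and 3 and 716, 788 and 704 on water deficit arrays 1, 2 and 3. All its watered values lay above all its water deficit values, with a log2 fold change of -0.39 ± 0.16 (SE, 3 arrays per group, limma adjusted p = 0.0857). Every SE printed here is limma's moderated one, which joins a probe set's own spread with that of all tested probe sets. AT5G03880 was the only named gene among the 4 members with an unadjusted p under 0.05, and it was picked out after its values were seen. A probe set without a gene name went furthest down, at 7311, 7741 and 7625 with water and 5677, 5620.0 and 5677 under water deficit, without overlap between the groups.

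The respiratory chain was the list with the most members for its size among lists with 20 or more abundant probe sets. The lists were drawn up from general knowledge once the members were known, so their shares are descriptions. Those for the respiratory chain, ribosome, translation factors and nuclear photosynthesis genes hold only genes already found abundant. Of 20 abundant probe sets for the respiratory chain and mitochondrial ATP synthase, 11 were members (55.0%), against 17.1% of all abundant probe sets. Their median log2 fold change was 0.00, with 5 above and 6 below 0. Of the 9 abundant genes of this list that were not members, AT5G11770, a complex I subunit gene, rose by a log2 fold change of 0.73 ± 0.23 (SE, 3 arrays per group, limma adjusted p = 0.0326), and the other 8 did not pass the test.

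Complex I, which takes electrons from NADH, was represented by AT4G20150, AT3G12260, AT3G03070 and FRO1. AT4G20150 was the brightest of the 11 members, at 1285, 1179 and 1435 on watered arrays 1, 2 and 3 and 1296, 1159 and 1365 on water deficit arrays 1, 2 and 3. AT3G12260 gave 1009.8, 1102 and 1349 with water and 1025, 1109 and 1319 under water deficit. In both genes the groups overlapped, replicate 3 was the highest array of each group, and the log2 fold changes were -0.03 ± 0.17 and -0.00 ± 0.20 (SE, 3 arrays per group). AT3G12260 therefore had nearly equal group means with a ratio of 1.34 among its arrays. FRO1, whose loss impairs cold-responsive gene expression, gave 619.7, 702 and 649 with water and 759, 783 and 835 under water deficit. Its water deficit values were all above its watered ones, with a log2 fold change of 0.27 ± 0.16.

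Complex III passes electrons on to cytochrome c, and in plants its core subunits also cut targeting peptides from imported proteins. MPPBETA, the beta subunit of that peptidase, gave 986, 857 and 899 with water and 1009.8, 918 and 918 under water deficit and had a ratio of 1.18. The groups overlapped, and watered array 1 and water deficit array 1 were the highest of their groups. AT1G51980, for the alpha subunit, stood at a mean of 702 with a log2 fold change of 0.10 ± 0.16. The small subunit genes AT4G32470 and AT3G10860 had log2 fold changes of -0.11 ± 0.17 and -0.13 ± 0.17.

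CYTC-1 encodes cytochrome c, the carrier between complexes III and IV. Its values were 1109, 958 and 932 with water and 1197, 1179.8 and 1141 under water deficit. All 3 water deficit values exceeded the watered ones, with a log2 fold change of 0.23 ± 0.17 (SE, 3 arrays per group, limma adjusted p = 0.285). The complex IV subunit genes lay on the other side, with log2 fold changes of -0.15 ± 0.17 for AT2G47380 and -0.32 ± 0.16 for AT4G21105. AT4G21105 gave 907, 824 and 797 with water and 654, 654 and 712 under water deficit, again with no overlap.

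Other versions of the rule changed how many respiratory genes it kept. Members were 6 of 19 abundant respiratory probe sets under median scaling, of which 5 were also members under quantile normalisation. Without replicate 1 of either group they were 17 of 20, in a rule that then took 31.7% of all abundant probe sets.

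The V-ATPase had 4 abundant probe sets, and 3 of them were members, against 17.1% of all abundant probe sets. AT4G26710, for a membrane subunit, gave 1259, 1299 and 1313 on watered arrays 1, 2 and 3 and 1050.5, 1124 and 986 on water deficit arrays 1, 2 and 3. AT4G02620, for subunit F of the peripheral part, gave 833, 792 and 866 with water and 1013, 969 and 1094 under water deficit. AT3G42050, for the regulatory subunit H, gave 749, 798 and 779 with water and 693, 685 and 689 under water deficit and varied least, with a ratio of 1.16. In none of the 3 did the groups overlap, and they differed in direction, with watered arrays higher for AT4G26710 and AT3G42050 and water deficit arrays higher for AT4G02620. Their log2 fold changes were -0.29 ± 0.16, -0.17 ± 0.16 and 0.30 ± 0.16. AT3G58730, for subunit D of the rotating stalk and the fourth abundant gene, rose by a log2 fold change of 0.97 ± 0.19 (SE, 3 arrays per group, limma adjusted p = 0.00443). Of 9 tested V-ATPase probe sets, 2 were called higher and 0 lower, against 21.8% and 23.0% of all tested ones. Members were 1 of 4 abundant V-ATPase probe sets under median scaling and at a ratio limit of 1.3. They were 3 of 7 at a minimum of 300 and 6 of 7 without replicate 1 of either group.

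**Figure D2:**
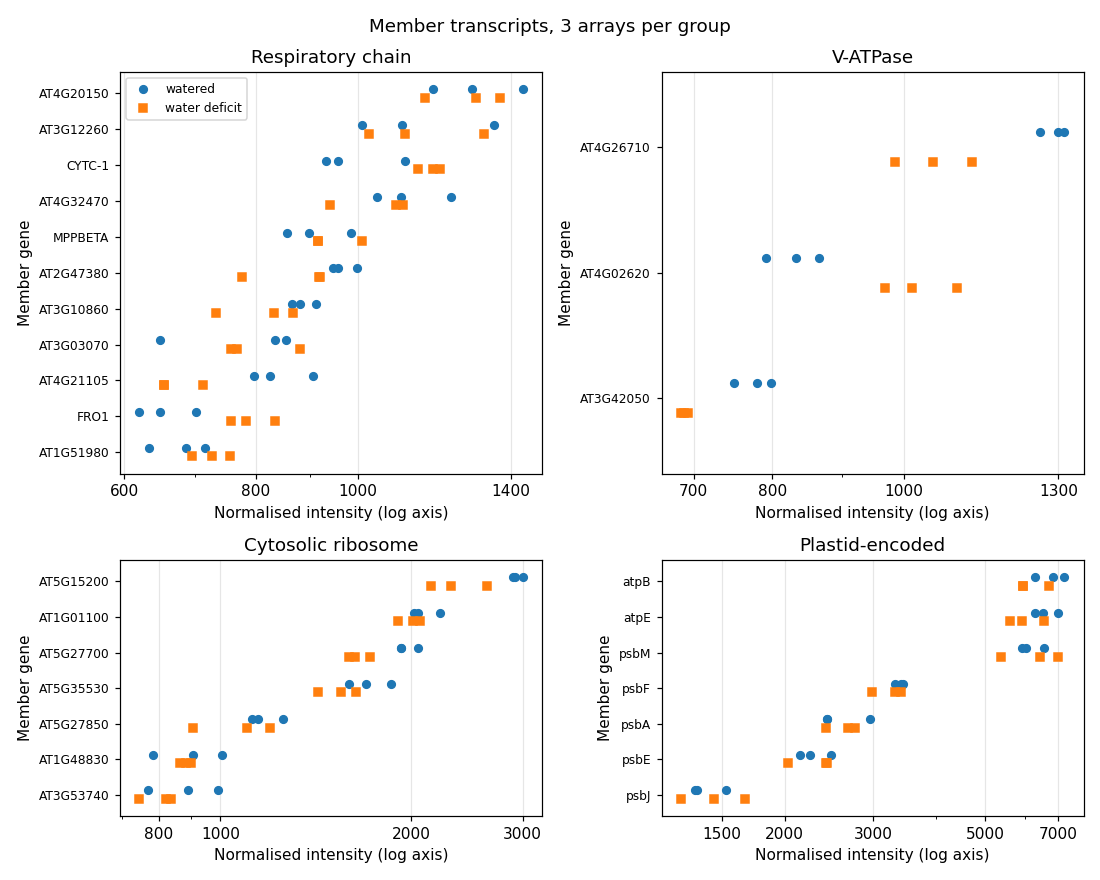
Normalised intensity (log axis) of each named member in 4 lists, with 3 watered arrays (blue circles) and 3 water deficit arrays (orange squares) per gene. All 3 V-ATPase genes have separate groups, and the groups of all 7 plastid-encoded genes overlap.

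Of 52 abundant probe sets for cytosolic ribosomal proteins, 7 were members (13.5%), 28 were called lower under water deficit and 17 others did not pass the test. Over all abundant probe sets, 17.1% were members and 24.8% were called lower. Without replicate 1 of either group, 19 of the 52 were members, in a rule that then took 31.7% of all abundant probe sets. Over all 52 the median log2 fold change was -0.58, against -0.07 over all abundant probe sets. The 7 members all lay below 0, from -0.32 to -0.02, with a median of -0.14, whereas with spike-in scaling and with unscaled values 5 of the 7 lay above 0. Groups were separate in 2 of the 7, with the watered arrays higher in both.

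The brightest of them was AT5G15200, for protein S9 of the small subunit, at 2923, 3000.2 and 2898 on watered arrays 1, 2 and 3 and 2154, 2309 and 2639 on water deficit arrays 1, 2 and 3. Every watered value lay above every water deficit value, and the log2 fold change was -0.32 ± 0.17 (SE, 3 arrays per group, limma adjusted p = 0.16). AT5G27700, for protein S21, also had separate groups, at 2053, 1926 and 1929.6 with water and 1597, 1633 and 1725 under water deficit. AT1G01100, for the acidic stalk protein P1, gave 2223, 2024 and 2053 with water and 1905, 2015 and 2066 under water deficit. Its groups overlapped, and its ratio of 1.17 was the lowest of the 7. The other members were the small subunit genes AT5G35530 (S3) and AT1G48830 (S7) and the large subunit genes AT5G27850 (L18) and AT3G53740 (L36), with log2 fold changes of -0.16 ± 0.17, -0.02 ± 0.17, -0.14 ± 0.18 and -0.14 ± 0.18.

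Among 5 abundant translation factor genes, 1 was a member. AT2G04520, for initiation factor eIF1A, gave 744, 682 and 643 with water and 688, 767 and 709 under water deficit, with overlapping groups. EIF4A-2, for an RNA helicase of translation initiation, rose by a log2 fold change of 0.62 ± 0.19 (SE, 3 arrays per group, limma adjusted p = 0.0309).

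Genes of the photosynthetic apparatus lie in the nucleus and in the chloroplast. None of 20 abundant nuclear genes for photosynthesis was a member, and 16 of them were called lower, with a median log2 fold change of -0.80 over the 20. The lowest ratio among them was 1.49. Lists held only probe sets paired with exactly 1 gene. The 505 abundant probe sets with no gene, 81 of them members, could therefore not be counted in any list. Over all abundant probe sets, 17.1% were members and 24.8% were called lower. Of 30 abundant plastid-encoded genes, 7 were members (23.3%), 4 were called lower and 19 others did not pass the test. Over these 30 genes the median log2 fold change was -0.11. Without replicate 1 of either group, 17 of 40 abundant plastid genes (42.5%) and 1 of 20 nuclear genes were members. The rule then took 31.7% of all abundant probe sets. The difference between the nuclear and plastid shares was not tested.

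The plastid members were subunits of photosystem II and of the chloroplast ATP synthase. The brightest named members were atpB and atpE, for the beta and epsilon subunits of that ATP synthase. Normalised intensities of atpB were 6818, 7194 and 6299.9 on watered arrays 1, 2 and 3 and 6692, 5965 and 5965 on water deficit arrays 1, 2 and 3. Those of atpE were 6509.8, 6299.9 and 6987 with water and 6566, 5931 and 5620.0 under water deficit. The groups overlapped in both genes, and their log2 fold changes were -0.13 ± 0.17 and -0.13 ± 0.17. The 2 genes are neighbours in the chloroplast genome.

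The photosystem II members were psbA, psbE, psbF, psbJ and psbM. The D1 protein of the reaction centre, which is replaced quickly in the light, is encoded by psbA, with values of 2949, 2424 and 2424 with water and 2759, 2416 and 2674 under water deficit. Watered array 1 was its highest array, and its log2 fold change was 0.01 ± 0.18. Cytochrome b559 is formed by the products of psbE and psbF, which are also neighbours in the genome. The psbF values were 3432, 3319 and 3400.1 with water and 3412, 3306 and 2987 under water deficit, and its ratio of 1.15 was the lowest of the plastid members. The group means of psbE were nearly equal, at 2144, 2239 and 2474 with water and 2416, 2424 and 2027 under water deficit, with a log2 fold change of -0.00 ± 0.17. The small subunit genes psbM and psbJ had log2 fold changes of 0.02 ± 0.18 and 0.05 ± 0.19, and both were lowest on water deficit array 1 and highest on water deficit array 2.

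The atpA gene, for the alpha subunit of the same ATP synthase, was no member, with 934, 3472 and 2680.4 with water and 3964, 3049 and 3273 under water deficit. Its ratio of 4.24 rests on watered array 1, the lowest, and the other 5 arrays lay between 2680.4 and 3964. Its log2 fold change of 0.73 ± 0.45 did not pass the test. The psaJ gene, for a small photosystem I subunit, missed the rule narrowly with a ratio of 1.41.

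**Figure D3:**
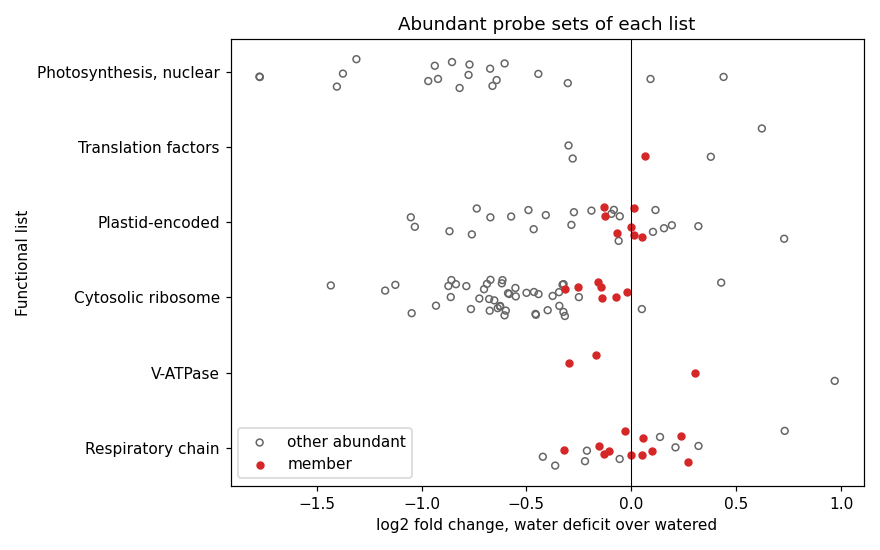
Log2 fold change (water deficit over watered) of every abundant probe set in 6 functional lists, with members in filled red and the others in open grey; vertical position within a list is arbitrary. Over all abundant genes of a list, members or not, the median was -0.01 for respiratory and -0.11 for plastid-encoded genes. It was -0.58 for ribosomal and -0.80 for nuclear photosynthesis genes. The rule itself holds members near 0.

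Of the 66 named members, 37 belonged to none of these lists. The brightest was AT1G09310, for a protein of the DUF538 family, at 5556, 5322 and 5322 on watered arrays 1, 2 and 3 and 6722, 6406 and 6629 on water deficit arrays 1, 2 and 3. Its water deficit values were all above its watered ones, with a log2 fold change of 0.29 ± 0.16 (SE, 3 arrays per group, limma adjusted p = 0.175). SRC2, for a membrane-associated C2 domain protein, gave 5055, 4285 and 3902 with water and 4717, 4521 and 3667 under water deficit. Its groups overlapped, and array 3 was the lowest of both groups. UBC28, for a ubiquitin-conjugating enzyme, gave 2461, 2512 and 3154 with water and 2918, 3369 and 3319 under water deficit, and watered array 3 lay among the water deficit values.

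Enzymes of central metabolism were also present. TPI, for the triose phosphate isomerase of glycolysis, gave 2059, 2183 and 2401 with water and 1760.3, 1729.7 and 1911 under water deficit. All its watered values were above its water deficit values, and the log2 fold change was -0.30 ± 0.17. ALDH11A3, for the cytosolic non-phosphorylating glyceraldehyde 3-phosphate dehydrogenase, had a log2 fold change of 0.12 ± 0.17, and ACLA-1, for a subunit of ATP-citrate lyase, one of -0.19 ± 0.17. AT2G34590, for the beta subunit of the E1 component of plastid pyruvate dehydrogenase, gave 593, 557 and 628 with water and 577, 575 and 621 under water deficit, with overlapping groups and a log2 fold change of -0.00 ± 0.16. GME, of ascorbate synthesis, and HCT, of lignin synthesis, had log2 fold changes of -0.15 ± 0.18 and 0.21 ± 0.18.

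Regulators and a transport protein were also among the members outside the lists. BZIP53, for a transcription factor that regulates amino acid metabolism under low energy, gave 1611, 1685 and 1581 with water and 1464, 1523 and 1709.7 under water deficit, with overlapping groups and a ratio of 1.17. ILR3, for a transcription factor of iron responses, had a log2 fold change of 0.08 ± 0.18. SWEET11, which exports sucrose for loading into the phloem, gave 873, 691 and 791 with water and 681, 839 and 739 under water deficit, and array 2 was the lowest of the watered group and the highest of the water deficit group.

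Several of the flattest named members had modest signals. AT2G23070, for a catalytic subunit of protein kinase CK2, had the lowest ratio of all, at 1.13, with values of 745, 739 and 755 with water and 669.8, 731 and 709.9 under water deficit. Its watered values nonetheless all exceeded its water deficit values. AT1G76010, for an Alba family nucleic acid-binding protein, gave 613, 553 and 555 with water and 597, 592 and 629.5 under water deficit. AT2G35490, for a fibrillin of the plastid, gave 532, 585 and 597 with water and 578, 628 and 589.7 under water deficit. The groups of both genes overlapped, and their ratios were 1.14 and 1.18. AT4G21110, for a protein of the G10 family, lies beside the complex IV gene AT4G21105 on chromosome 4, and their log2 fold changes were 0.13 ± 0.16 and -0.32 ± 0.16.

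AT2G37110 had the highest log2 fold change among named members, at 0.35 ± 0.16. It encodes a cysteine-rich protein of the PLAC8 family and gave 605, 589 and 592 with water and 804, 776 and 697 under water deficit, with all water deficit values above all watered ones. AT1G08110, for a glyoxalase I that detoxifies methylglyoxal, gave 619, 593 and 709 with water and 791, 817 and 751 under water deficit, with separate groups in the same direction. AT2G46600, for a calcium-binding EF-hand protein, gave 2141, 1987 and 2085 with water and 1873, 1732 and 1791 under water deficit, with separate groups in the other direction.

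Over all 37 named members outside the lists, means ran from 570.5 to 5993 and log2 fold changes from -0.39 to 0.35, with 19 above and 18 below 0, and groups were separate in 12. The 81 members without a gene had means from 546 to 8896 and a median log2 fold change of 0.04, with 47 above and 34 below 0, and groups were separate in 20 of them. The 9 probe sets paired with several genes had means from 671 to 5916, and 7 were above 0.

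Members lay on all 5 nuclear chromosomes and in the plastid genome. They were 17 of 85 abundant single-gene probe sets on chromosome 1, 10 of 51 on chromosome 2, 11 of 83 on chromosome 3, 7 of 46 on chromosome 4, 14 of 69 on chromosome 5 and 7 of 30 in the plastid. The only neighbouring pairs of named members in gene order were atpE with atpB, psbF with psbE, and AT4G21105 with AT4G21110.

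The limits of the rule cut through continuous values. Just inside the ratio limit stood AT1G21065 at 1.39995, AT5G21090 at 1.396 and AT3G26450 at 1.394, and just outside it stood AT1G51200 at 1.405, AT2G34460 at 1.406 and psaJ at 1.406. AT5G21090 encodes a leucine-rich repeat protein and AT3G26450 a protein of the major latex protein family. The lowest values just inside the minimum were 519 for AT4G21110, 532 for AT2G35490 and 542 for AT2G21960, and those just outside it were 497 for AT5G51970, 479.8 for AT1G24360 and 478 for AT2G34585.

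GAPC2, a cytosolic glyceraldehyde 3-phosphate dehydrogenase gene often used as a reference, was the only member from a list of 41 reference genes, of which 11 were paired with a probe set. Its values were 4373, 4521 and 4373 on watered arrays 1, 2 and 3 and 3306, 3565 and 3483 on water deficit arrays 1, 2 and 3. The groups did not overlap, and the log2 fold change was -0.36 ± 0.16 (SE, 3 arrays per group, limma adjusted p = 0.102). This SE is the moderated one, and the 3 values within each group of GAPC2 lay closer together than it implies. Among named members only AT5G03880 had a lower log2 fold change. Under median scaling the value for GAPC2 was -0.73 with a limma adjusted p of 0.0177. The array's own control probe sets for GAPDH had ratios from 1.58 to 2.02.

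The other 10 measured reference genes were below the minimum of 500 on at least 1 array. AT4G26410 gave 334, 277 and 302 with water and 274, 282 and 293 under water deficit, with overlapping groups and a ratio of 1.22. AP2M, for a subunit of the AP-2 clathrin adaptor, gave 268, 261 and 268 with water and 359, 312 and 355 under water deficit, with water deficit values above all watered ones. UBC21 and SAND had ratios of 1.77 and 1.58. Of the reference genes, TIP41L, ACT11 and TUB6 passed the test. TIP41L rose by a log2 fold change of 0.81 ± 0.25 (SE, 3 arrays per group, limma adjusted p = 0.0296), with a ratio of 2.45. ACT11, an actin gene, was lower, at 244, 217 and 60.1 with water and 15.1, 12.8 and 18.7 under water deficit, with a log2 fold change of -2.99 ± 0.49 and a limma adjusted p of 0.0019. Arrays 1 and 2 of the water deficit group were under the background floor of 18.5, which stands in for them in the fit. TUB6, a tubulin gene, had a ratio of 3.46 and was lower, at a log2 fold change of -1.01 ± 0.28 (SE, 3 arrays per group, limma adjusted p = 0.0201).

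Whether a transcript was level depended on how the arrays were brought to 1 scale. As deposited, the median signal of the members was 479, 1397 and 946 on watered arrays 1, 2 and 3 and 535, 1628 and 1388 on water deficit arrays 1, 2 and 3. After quantile normalisation these medians lay between 1025 and 1076. When each array was divided by its median, the members' median log2 fold change was -0.24, with 129 of 156 below 0. With scaling to the 18 spike-in control probe sets it was 0.26 and with no scaling 0.31, but the median over all tested probe sets was then 0.48 and 0.51. On all 3 of these scales the members stood below the median of tested probe sets. Only 66 of the 156 were members when the rule was applied after median scaling, which gave 122 members in all.

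The gap between scalings varied with brightness. Under median scaling the members' median log2 fold change was -0.10 at means under 1000 (72 members), -0.31 from 1000 to 4000 (68 members) and -0.48 at 4000 or more (16 members), where all 16 were below 0. Under quantile normalisation the same medians were 0.05, -0.04 and -0.05. With spike-in scaling they were 0.40, 0.19 and 0.02, so the gap to quantile normalisation widened with brightness for median scaling and narrowed for spike-in scaling. The 7 plastid members had a median of 0.00 under quantile normalisation and -0.39 under median scaling, where all 7 were below 0, and none of 29 abundant plastid genes was then a member. The 7 ribosomal members moved from -0.14 to -0.40, and none of 51 abundant ribosomal genes was then a member. The 11 respiratory members moved from 0.00 to -0.27. Spike-in scaling turned the direction, with medians of 0.11 for the plastid members (5 of 7 above 0), 0.10 for the ribosomal members (5 of 7 above 0) and 0.24 for the respiratory members (10 of 11 above 0). Unscaled values gave 0.15, 0.15 and 0.28.

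**Figure D4:**
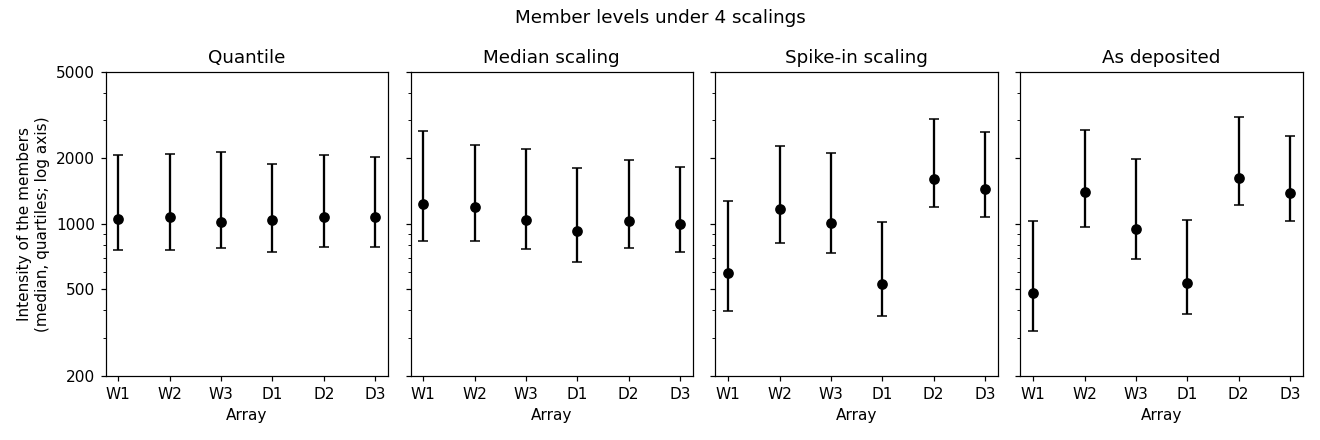
Median (points) and quartiles (bars) of the intensity of the 156 members on each array, W for watered and D for water deficit, log axis, under 4 scalings. The medians lie between 1025 and 1076 after quantile normalisation and between 479 and 1628 as deposited, with replicate 1 the dimmest of each group.

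The arrays also differed in a measure of RNA and labelling quality. Control probe sets for the 3′ and 5′ ends of actin transcripts gave a 3′ to 5′ signal ratio of 21.8 on watered array 1 and from 7.14 to 9.29 on the other 5. For GAPDH the ratio was 4.08 on watered array 1 and 1.45 to 2.02 on the others. After normalisation the probe set for 25S ribosomal RNA read 333 and 813 on replicate 1 of the watered and water deficit groups and from 73.6 to 97.1 on the other 4. Watered array 1 was the highest array for 32 members and water deficit array 1 the lowest for 40, the largest such counts. Water deficit array 3 was the highest for nearly as many, 31, and watered array 2 the lowest for 32. Without watered replicate 1 the rule gave 253 members and without replicate 1 of either group 424, and all 156 were among both. The part of RNA quality in the choice of members was not tested.

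**Figure D5:**
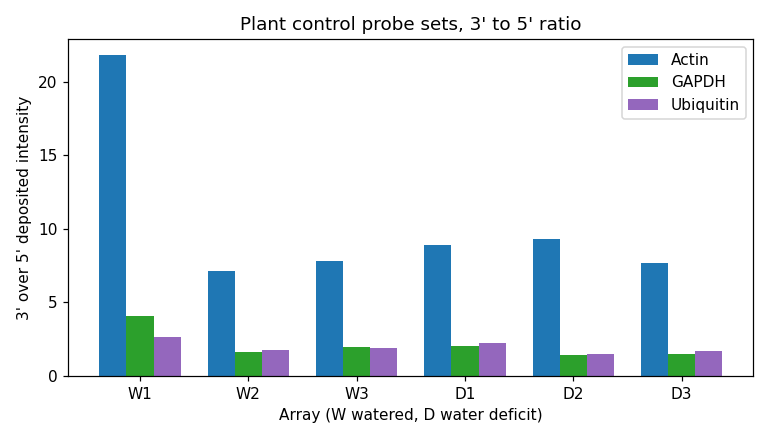
Ratio of 3′ to 5′ deposited intensity for the actin, GAPDH and ubiquitin control probe sets on each array (W watered, D water deficit), 1 value per bar. Watered array 1 stands apart at 21.8 for actin and 4.08 for GAPDH.

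Most markers drawn up for the tissue check were not paired with a probe set, and those that were fitted a rosette apart from PYK10. The leaf genes RCA and LHCB4.1 read above the minimum of 500 on all arrays, and EXPA7, of root hairs, and a pollen gene were under the background floor of 18.5 on all 6. PYK10, known from roots, read 251, 409.9 and 858 with water and 459, 543 and 1214 under water deficit, and its part in the members' values was not tested.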

How the data were processed

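Total RNA of 3 watered and 3 water deficit rosette samples was read on 6 arrays. Per the study's methods the authors processed the scans with the Affymetrix software and a ratio analysis in Rosetta Resolver. The authors deposited a linear intensity for each probe set and array, with background subtracted. The arrays differed in overall level, and some values were at or below 0. The Resolver model could not be rerun. No genome build for the probes is named, so no coordinates are printed.

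Values were quantile normalised over all 22810 probe sets, 64 of them controls. The planned log2 comparison needed this scaling and a floor, set at 18.5 (4.21 on the log2 scale), the highest value of 27 Bacillus control probe sets. Probe sets above the floor on at least 3 arrays were tested (13703) in limma 3.58.1 (two-sided moderated test by lmFit and eBayes, group as the only term, Benjamini-Hochberg over all tested) in R 4.3.3, and the fit was tested on simulated data. All members passed the filter, as their rule requires. P-values and printed errors rest on limma's moderated variance, which joins a probe set's own spread between these samples with that of all tested probe sets. The rule chose members with a narrow range, so a printed error can exceed the spread of a member's own arrays. The number of arrays, 3 per group, limits the precision.

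The members and lists were chosen with earlier results of these data known. The functional classes first planned relied on gene descriptions that the annotation table used does not hold, and matched 26 of 367 abundant single-gene probe sets. Lists written from general knowledge replaced them, 4 of them by going through the abundant probe sets, and the V-ATPase and plastid lists from all their genes. Named genes were, among members with 1 gene, the 10 of highest mean, the 10 of lowest ratio, the 3 highest of each list, reference genes, and the 3 on each side of each limit. Other members are named as the rest of a list, or were chosen after their values were seen. Gene names came from the platform annotation, updated through the TAIR10.1 gene table. Of the 22746 non-control probe sets, 13513 had 1 gene, 503 several and 8730 none. Sequences were not analysed here.

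Replicate numbers in the sample titles were checked as pairs. Same-numbered samples deviated together from their group means (correlations 0.291, 0.230 and 0.393, others from -0.381 to 0.0285), which group-mean centring favours in part, and the numbers count as pairing the samples. The printed errors and p-values come from the unblocked fit, which follows the pooling in the methods, and a blocked fit was run as an alternative. The printed errors therefore include variation that same-numbered samples shared across the groups. Alternatives covered the scaling, floor, filter, limits of the rule, replicate block and each array left out. The rule and fit over the 4 arrays without replicate 1, and the list counts, were chosen after seeing the data.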

Additional observations from a re-analysis of the deposited data

How the results depend on the processing

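The number of members (156) fell to 0 after spike-in scaling and to 0 for unscaled values. It was 254 at a minimum of 300, 70 at a minimum of 1000, 80 at a ratio limit of 1.3, 235 at a limit of 1.5, and 424 over the 4 arrays without replicate 1 of either group, the last chosen after seeing the data. Leaving out 1 array gave 153 to 253, the highest without watered replicate 1. Members called by limma, none in either direction, became 11 lower under median scaling, and 9 higher and 12 lower without the filter. Without the filter the members' log2 fold changes stayed as they were (-0.42 to 0.39). Only the moderated errors and the correction over all tested probe sets could then differ. The cause was not tested in either case. The members' median log2 fold change (0.01) was -0.24 after median scaling, 0.26 after spike-in scaling, 0.31 for unscaled values and -0.00 to 0.02 with 1 array left out. Over all tested probe sets, 2992 were called higher and 3154 lower. Spike-in scaling gave 1344 higher and 525 lower, and unscaled values gave 1030 and 370. They were 1913 to 2890 higher and 2129 to 2814 lower with 1 array left out, the fewest higher without water deficit replicate 2. With the replicate block 3519 were called higher and 3493 lower, and 0 members were called, so the pairing changed no call among members.

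Of the 30 genes named by rule, the log2 fold change moved by more than the spread between replicates in 29 after median scaling, 27 for unscaled values and 26 after spike-in scaling. The block cannot change a fold change in this balanced design. The scaling and the number of arrays limit what is shown, and the part of RNA quality was not tested. For the members, signal over background does not enter, because the rule fixes a minimum of 500 against a floor of 18.5. It does enter for the reference gene ACT11, which was under that floor on water deficit arrays 1 and 2.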
